A study of Homo sapiens with 6 samples.

Results

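The genes described here encode subunits of the nuclear RNA polymerases I, II and III. They were taken as every row of the deposited gene table that carries a single gene name beginning POLR1, POLR2 or POLR3 and a letter, which gave 24 of 18268 rows, 5 named POLR1, 10 named POLR2 and 9 named POLR3. RNA was sequenced from MIA PaCa-2 cells, an established human pancreatic carcinoma cell line labelled as epithelial. The groups were cells overexpressing the long noncoding RNA LINC00901 (n = 3) and cells with the vector control, pCDH (n = 3), all grown in medium with fetal bovine and horse serum. No row names LINC00901, so its level was not analysed here, and the labels say neither whether replicates were separate cultures nor whether the cells were a clone. The p-values therefore measure only the spread between these libraries, which may be technical.

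Polymerase I transcribes the large ribosomal RNA precursor, polymerase II the messenger RNAs, and polymerase III the transfer RNAs, the 5S ribosomal RNA and other short RNAs. Each enzyme is built around its own pair of large catalytic subunits. Some small subunits are common to all 3 enzymes, and the POLR1C and POLR1D pair is common to polymerases I and III, so a symbol does not always name the only enzyme its product enters. By composition the 24 genes fall into 3 specific to polymerase I, 5 specific to polymerase II, 9 specific to polymerase III and 7 shared subunits, of which 2 serve polymerases I and III and 5 serve all 3.

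The values are FPKM, fragments per kilobase of gene scaled to the fragments of the library, as the authors made them, and the depth behind them is unknown. FPKM summed to 127768 to 128538 in the overexpression libraries and to 87162 to 88738 in the vector libraries, and the subunit genes together took 0.194% to 0.199% and 0.190% to 0.192% of these sums. Across the 9694 rows with a mean of at least 1 FPKM, the median gene was higher by 0.27 on the log2(FPKM + 0.5) scale in overexpression. Unless a change is called unscaled, log2 changes are given relative to that median gene, while adjusted p-values come from limma on the values without rescaling. The added 0.5 makes the changes of genes with low FPKM look smaller than they are. Of the epithelial markers, KRT18 (70.79 ± 13.97 FPKM in overexpression, 100.1 ± 7.97 in vector; SD, n = 3) and KRT19 (24.0 ± 1.07 and 3.71 ± 1.95) were present, and EPCAM and CDH1 were at 0.14 FPKM or less in every library. KRT7 was low, at 0.11, 0.49 and 0.42 FPKM in overexpression, against 1.03, 0.41 and 0.18 in vector. KRT8 is in a row joined with KRT78. The leukocyte markers PTPRC and CD3E were listed at 0 throughout, but CD14, a monocyte marker, had 0.62, 1.37 and 1.34 FPKM in overexpression, against 0, 0.48 and 0 in vector. The endothelial markers reached at most 0.64 FPKM (CDH5), and neither list had a single-name row that passed the filter. CD68, also of the leukocyte list, is in a row joined with EIF4A1 and SENP3. Of the fibroblast markers, DCN, PDGFRB and LUM reached at most 0.01, 0.14 and 0.68 FPKM in any library. COL1A1, a fibroblast collagen, averaged 1.67 ± 0.280 FPKM in overexpression and 0.583 ± 0.297 in vector, COL1A2 13.1 ± 2.69 and 18.1 ± 0.465, and VIM, a mesenchymal filament, 577 ± 49.5 and 229 ± 27.5 (SD, n = 3). The part of these differences in the results was not tested.

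RefSeq promoter windows of GRCh38.p14, from 250 bases before to 50 after the annotated start, were matched for 17 of the 24 genes. The windows of POLR1D and POLR1C are shown because the changes described first are theirs: their products pair with each other, and they changed in opposite directions. POLR1D lies at chr13:27620493-27620792 and POLR1C at chr6:43516839-43517138, both on the plus strand. Capitals mark the letters of the motifs searched, on either strand.
POLR1D: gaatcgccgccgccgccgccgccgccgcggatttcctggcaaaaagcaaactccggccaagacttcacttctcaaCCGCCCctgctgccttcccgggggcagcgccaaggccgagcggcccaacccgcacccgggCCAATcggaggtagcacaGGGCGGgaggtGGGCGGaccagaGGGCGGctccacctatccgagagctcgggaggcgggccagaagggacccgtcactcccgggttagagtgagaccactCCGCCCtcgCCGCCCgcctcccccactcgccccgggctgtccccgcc
POLR1C: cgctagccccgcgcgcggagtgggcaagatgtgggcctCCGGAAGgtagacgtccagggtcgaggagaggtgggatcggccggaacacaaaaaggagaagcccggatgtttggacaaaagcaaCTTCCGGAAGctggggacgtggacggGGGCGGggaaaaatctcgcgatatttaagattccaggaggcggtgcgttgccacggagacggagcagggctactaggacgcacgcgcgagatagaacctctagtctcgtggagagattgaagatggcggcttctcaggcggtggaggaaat

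The motifs searched on both strands were the GC box (GGGCGG), the E box (CACGTG), the CCAAT box (CCAAT), the TATA box (TATAAA), the ETS core (CCGGAAG), the AP-1 motif (TGANTCA) and the CRE (TGACGTCA). None of these motifs contains another. The POLR1D window held 6 GC boxes and 1 CCAAT box and the POLR1C window 1 GC box and 3 ETS cores, a pair of which overlap. Over the 17 windows, 13 held a GC box (76.5%), against 44.6% of 27305 RefSeq promoter windows of the same length, and 6 held an ETS core (35.3%), against 10.7%. The 17 windows had a median GC content of 63.7%, against 58.3% over all windows, which bears on how often such letters occur. An E box was in 3 of the 17 windows (17.6%, against 7.43%), those of POLR3A, POLR3C and POLR3E. No TATA box, AP-1 motif or CRE was in any of the 17, against 12.0%, 7.76% and 1.98% of all windows. These are matches of letters in 1 window per gene and no record of a factor bound there.

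All 24 subunit genes passed the filter on low values and were tested. In limma, 12 were higher and 1 lower in overexpression at an adjusted p under 0.05, against backgrounds of 37.4% of all tested rows higher and 11.9% lower. After each library was centred on its median gene, 10 were higher and 2 lower (24.0% and 19.2% of all tested rows). The FPKM of the groups did not overlap for 16 genes higher and 2 lower, against 44.9% and 15.6% of tested rows. By enzyme, for polymerase II 4 of 5 specific subunits were higher, for polymerase I 1 of 3, for polymerase III 2 of 9, and of the 7 shared subunits 5 were higher and 1 lower. With trends on length, GC content and level removed, 0 of 5 polymerase II and 0 of 3 polymerase I subunits were called, against 2 higher and 1 lower of 9 for polymerase III and 2 higher and 2 lower of the 7 shared (17.6% of all tested rows higher and 18.4% lower), so the order of the enzymes by count of calls depends on the scaling. The differences in count between the enzymes were not tested. In these bulk libraries, more cells expressing a gene and more RNA per cell cannot be told apart.

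**Figure D1:**
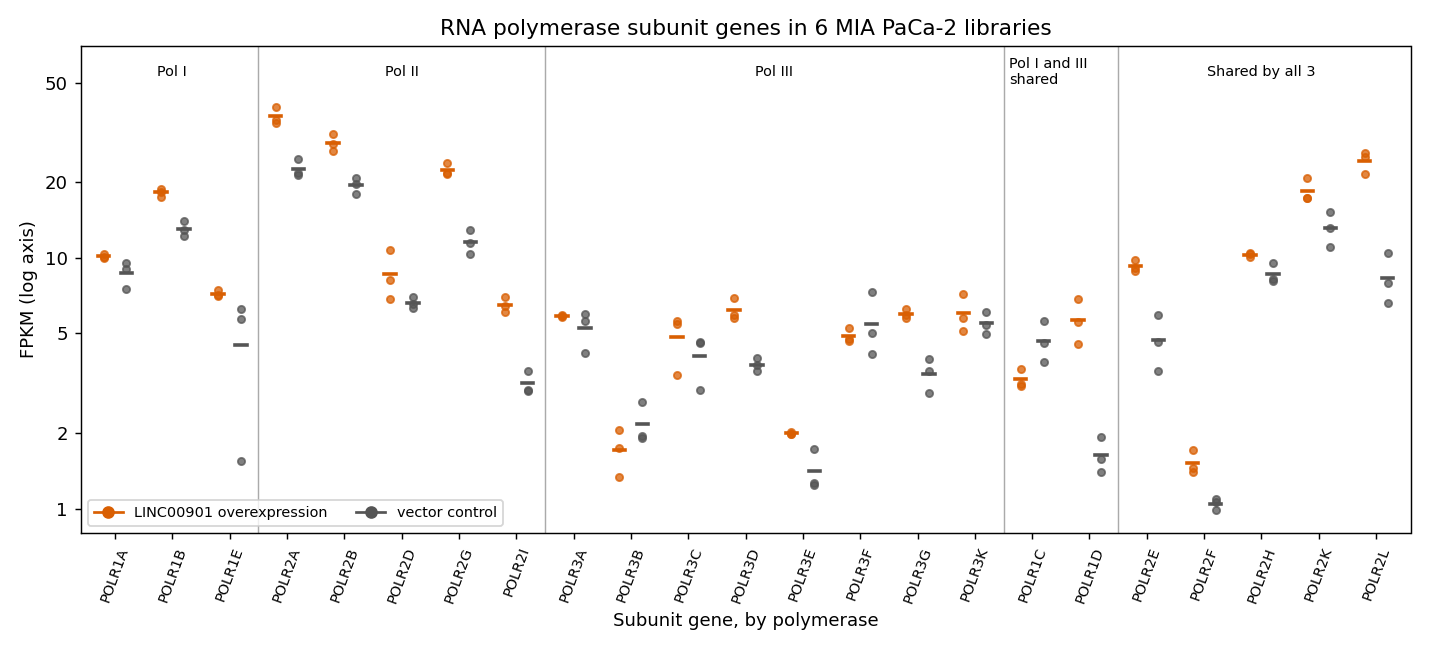
FPKM on a log axis for each subunit gene described here, grouped by polymerase, with 1 point per library and a bar at the group mean (LINC00901 overexpression left, vector control right, n = 3 each). POLR1D and POLR2L show the widest gaps between groups, POLR1C lies lower in overexpression, and most polymerase III subunits overlap.

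POLR1D and POLR1C, which form the small heterodimer on which polymerases I and III are assembled and which are both mutated in Treacher Collins syndrome, changed in opposite directions. POLR1D had 5.53, 4.53 and 6.87 FPKM in overexpression, against 1.93, 1.40 and 1.57 in vector. Every overexpression library was above every vector library, and the relative log2 change was 1.25 (SE 0.17, limma adjusted p = 0.000752). POLR1C stood at 3.60, 3.08 and 3.14 FPKM in overexpression, against 3.84, 4.58 and 5.59 in vector, again with no overlap but in the other direction. Its relative log2 change was -0.71 (SE 0.15, limma adjusted p = 0.0452). The ratio of POLR1D to POLR1C, which a single factor multiplying a library's FPKM leaves as it is, was 1.54, 1.47 and 2.19 in overexpression and 0.503, 0.306 and 0.281 in vector. The POLR1D transcript was thus the more abundant of the pair per length in each overexpression library and the less abundant in each vector library.

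The POLR1D call held in each alternative setting in which the gene was tested (at a minimum mean of 5 FPKM it was not), with adjusted p-values up to 0.00437 without a single library. That of POLR1C did not. Its adjusted p was 0.0873 with the replicate block and 0.0646 with no filter. Without overexpression replicates 1, 2 and 3 it was 0.0620, 0.118 and 0.120. Without vector replicates 2 and 3 it was 0.0887 and 0.108, while without vector replicate 1 it was 0.0222. These fits are unscaled, and under each of the other scalings POLR1C passed (limma adjusted p = 0.00684 to 0.0161). Exons of POLR1C share bases with opposite-strand exons of AL355802.2 (392 bases), XPO5 (348 bases), LRRC73 (140 bases) and YIPF3 (129 bases) in GENCODE 29, and whether counting used strand is not given in the sources used here. XPO5 and YIPF3 were higher in overexpression, XPO5 at 23.5 ± 0.338 against 17.5 ± 0.414 FPKM and YIPF3 at 11.5 ± 0.442 against 6.18 ± 0.911 (SD, n = 3). LRRC73 stood at 0.77, 0.90 and 1.89 FPKM in overexpression, against 0.87, 0 and 0 in vector, and did not pass the filter, and AL355802.2 was not analysed here. The part of these overlaps in the POLR1C level was not tested.

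The 5 subunits common to all 3 polymerases differed widely among themselves. POLR2L, the small zinc-binding subunit RPB10, stood at 21.50, 26.29 and 25.23 FPKM in overexpression, against 6.59, 10.41 and 7.90 in vector. Every overexpression library lay well above every vector library, and the relative log2 change was 1.25 (SE 0.17, limma adjusted p = 0.000668). Its log2 change was 0.70 with the length and GC trends removed (limma adjusted p = 0.0194) and 0.59 with level as well (limma adjusted p = 0.0375). POLR2E, the subunit RPB5, stood at 8.89, 9.07 and 9.78 FPKM in overexpression and 4.62, 3.55 and 5.93 in vector, a relative log2 change of 0.67 (SE 0.17, limma adjusted p = 0.00471). With the trends on length and GC content removed its adjusted p was 0.0503. POLR2K, the subunit RPB12, stood at 20.88, 17.29 and 17.37 FPKM in overexpression, against 13.12, 15.24 and 11.07 in vector (limma adjusted p = 0.0255). Its relative log2 change was 0.22, and its adjusted p was 0.155 after median centring. Without overexpression replicates 1 or 3 it was 0.0757 and 0.0505, and without vector replicates 1 or 3 it was 0.0573 and 0.0593.

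POLR2F, the subunit RPB6, had the lowest level of the 24 in both groups, at 1.40, 1.72 and 1.45 FPKM in overexpression and 1.09, 0.99 and 1.06 in vector. Its adjusted p of 0.0492 was past the threshold by little, became 0.322 after median centring, and rose above 0.05 whenever any 1 library was left out (0.0718 to 0.162). POLR2H, the subunit RPB8, did not pass in the unscaled fit, at 10.3 ± 0.174 against 8.64 ± 0.805 FPKM (SD, n = 3) and an adjusted p of 0.0732, although its groups did not overlap. Without vector replicate 1 that p was 0.0346. With the length and GC trends removed its sign turned, to a log2 change of -0.38 (limma adjusted p = 0.0260).

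Exons of POLR2L share 257 of 1142 exonic bases with the opposite-strand gene CD151, which stood at 16.1 ± 2.87 FPKM in overexpression and 7.40 ± 3.07 in vector (SD, n = 3; limma adjusted p = 0.0129). The part of that overlap in the POLR2L level was not tested. In all, 13 of the 24 genes share exonic bases with a gene on the other strand.

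**Figure D2:**
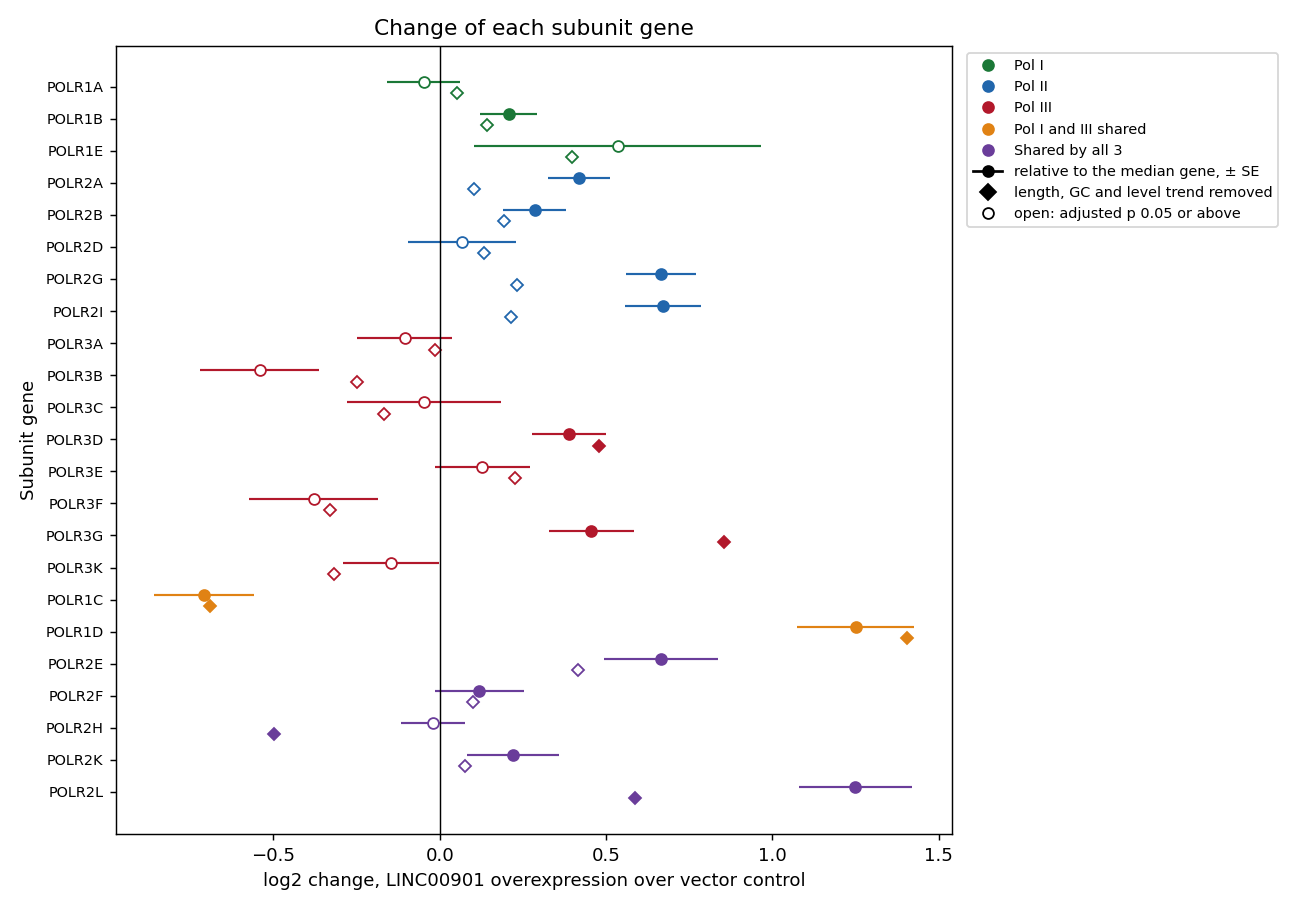
Log2 change of each subunit gene described here, overexpression over vector control. Circles show the change relative to the median gene with its SE (filled where the unscaled limma fit passed an adjusted p of 0.05), and diamonds the change after trends on length, GC content and level were removed (filled by the same rule). POLR1D, POLR2L, POLR3D, POLR3G and POLR1C are filled in both, while for the 5 polymerase II subunits 4 circles are filled (all but POLR2D) and every diamond is open.

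Of the 5 subunits specific to polymerase II 4 passed the test, and 3 of them (POLR2A, POLR2B and POLR2G) were among the 5 highest of the 24 genes in both groups. POLR2A, the largest subunit, which carries the heptad-repeat tail that is phosphorylated during transcription, stood at 34.62, 39.91 and 35.41 FPKM in overexpression, against 21.37, 24.74 and 21.76 in vector. The groups did not overlap, and the relative log2 change was 0.42 (SE 0.09, limma adjusted p = 0.00144). POLR2B, the second catalytic subunit, stood at 31.14, 26.56 and 28.54 FPKM in overexpression, against 20.73, 17.96 and 19.68 in vector, a relative log2 change of 0.29 (SE 0.09, limma adjusted p = 0.00349). POLR2A and POLR2B were the highest and next highest of the 24 genes in both groups. Their ratio was 1.11, 1.503 and 1.24 in overexpression and 1.03, 1.38 and 1.11 in vector, values that overlap between groups. Of the 5901 exonic bases of POLR2B 463 are shared with the opposite-strand gene NOA1 and 270 with IGFBP7. NOA1 stood at 23.4 ± 1.70 against 11.9 ± 2.70 FPKM, and IGFBP7 at 0.170 ± 0.199 against 0.913 ± 0.233 (SD, n = 3). The part of these overlaps in the POLR2B level was not tested.

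The stalk of polymerase II, which binds the emerging RNA, is made of POLR2D and POLR2G. POLR2G stood at 21.56, 23.86 and 21.80 FPKM in overexpression, against 10.33, 12.91 and 11.41 in vector, a relative log2 change of 0.67 (SE 0.10, limma adjusted p = 0.000674). POLR2D stood at 6.84, 8.19 and 10.76 FPKM in overexpression, against 6.52, 6.33 and 7.00 in vector. Those groups overlapped, and the adjusted p was 0.131, or 0.0436 without overexpression replicate 1. The difference between the changes of the stalk partners was not tested, and with trends on length, GC content and level removed they were 0.23 for POLR2G and 0.13 for POLR2D, neither past the threshold. POLR2I, the subunit RPB9 that supports RNA cleavage and proofreading, stood at 6.09, 6.40 and 6.96 FPKM in overexpression, against 2.94, 3.55 and 2.98 in vector, a relative log2 change of 0.67 (SE 0.11, limma adjusted p = 0.000921). Of its 1269 exonic bases 417 are shared with the opposite-strand gene TBCB and 785 with the transcript AD001527.2. TBCB stood at 4.64 ± 0.425 against 2.97 ± 0.307 FPKM (SD, n = 3), and the part of these overlaps was not tested.

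The 4 polymerase II calls depend on how level and length are handled. With trends on length, GC content and level removed from every library, the log2 changes were 0.10 for POLR2A, 0.19 for POLR2B, 0.23 for POLR2G and 0.22 for POLR2I, and 0 of the 4 passed (limma adjusted p = 0.105 to 0.419). With quantile normalization POLR2A and POLR2B no longer passed (limma adjusted p = 0.277 and 0.694) while POLR2G and POLR2I did. No direction changed. Genes of high level had larger changes in this comparison, with a median unscaled log2 change of 0.53 in the highest quintile of the 8830 rows with a known length and 0.10 in the lowest. By mean level in overexpression POLR2A, POLR2B and POLR2G ranked 1, 2 and 4 of the 24 genes.

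Other polymerase II subunits stood in rows that join several gene names, so their values belong to no single gene. The row COQ9;POLR2C, which holds the assembly subunit RPB3, stood at 17.65, 17.89 and 18.76 FPKM in overexpression, against 12.31, 11.15 and 10.88 in vector. The row that joins POLR2J, POLR2J2 and POLR2J3, near-identical copies of the RPB11 gene, with RASA4, RASA4B, UPK3BL1 and AC093668 went the other way, at 1.47, 1.79 and 1.69 FPKM against 3.35, 3.54 and 2.86 (relative log2 change -1.07, limma adjusted p = 0.00283). The row POLR2M;GCOM1;MYZAP did not pass (limma adjusted p = 0.918).

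In polymerase I, 1 of the catalytic pair passed the test. POLR1B, its second-largest subunit, stood at 18.88, 17.56 and 18.34 FPKM in overexpression, against 12.96, 13.97 and 12.18 in vector, a relative log2 change of 0.21 (SE 0.087, limma adjusted p = 0.00454). After median centring its adjusted p was 0.0483, and with trends on length, GC content and level removed it was 0.198. POLR1A, the largest subunit, stood at 10.06, 10.02 and 10.37 FPKM in overexpression, against 9.05, 7.52 and 9.54 in vector, with no overlap but an adjusted p of 0.141. POLR1E, of the pair that resembles an initiation factor, stood at 7.02, 7.10 and 7.44 FPKM in overexpression, against 6.26, 1.55 and 5.69 in vector. Vector replicate 2 was far below the other vector libraries for POLR1E, and the unscaled log2 change was 0.80 with it and 0.25 without it. Neither passed (limma adjusted p = 0.164 and 0.0974).

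Further polymerase I subunits appear under other symbols and were not taken by the rule. TWISTNB, a stalk subunit, stood at 12.2 ± 0.518 against 9.73 ± 0.900 FPKM (SD, n = 3; limma adjusted p = 0.0354), and ZNRD1, which supports RNA cleavage, at 4.96 ± 0.206 against 3.50 ± 0.679 (SD, n = 3; limma adjusted p = 0.0371). After median centring neither passed (limma adjusted p = 0.407 and 0.188). CD3EAP, the partner of POLR1E, is joined with FOSB, an early-response gene, and that row gave 7.23, 7.84 and 9.0 FPKM in overexpression, against 0.64, 0.98 and 0.46 in vector. The share of CD3EAP in it cannot be told apart from that of FOSB.

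The polymerase III subunits were mixed in direction, and 2 of 9 passed. POLR3G, of the trimer that opens the promoter and known for high levels in stem and tumour cells, stood at 5.90, 6.25 and 5.78 FPKM in overexpression, against 2.89, 3.53 and 3.94 in vector. The relative log2 change was 0.46 (SE 0.13, limma adjusted p = 0.00395). POLR3D, of the pair that resembles an initiation factor of polymerase II, stood at 5.94, 6.91 and 5.74 FPKM in overexpression, against 3.98, 3.54 and 3.73 in vector. Its relative log2 change was 0.39 (SE 0.11, limma adjusted p = 0.00342). Neither gene's groups overlapped, and both passed under each of the 5 scalings tried and without any 1 library. POLR3E, the partner of POLR3D, stood at 1.99, 2.02 and 1.98 FPKM in overexpression, against 1.27, 1.24 and 1.73 in vector, with an adjusted p of 0.0575. Without vector replicate 3 that p was 0.0229.

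CRCP, a stalk subunit of polymerase III, is in a row joined with ASL and AC068533, which stood at 7.11, 6.52 and 5.67 FPKM in overexpression, against 7.91, 7.90 and 8.46 in vector (limma adjusted p = 0.0497).

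The large subunits of polymerase III did not pass in any of the scalings. POLR3A stood at 5.92, 5.81 and 5.88 FPKM in overexpression, against 4.17, 5.99 and 5.62 in vector (limma adjusted p = 0.379), and POLR3B at 2.05, 1.34 and 1.74 against 1.92, 1.95 and 2.65 (limma adjusted p = 0.236). Their ratio was 2.89, 4.34 and 3.38 in overexpression and 2.17, 3.07 and 2.12 in vector, which overlap. POLR3C and POLR3F, partners of POLR3G in the initiation trimer, and POLR3K, which acts in termination, had relative log2 changes of -0.05, -0.38 and -0.15 and adjusted p-values of 0.465, 0.651 and 0.525. POLR3GL, the paralogue that replaces POLR3G in some cells, is joined with AC243547. That row stood at 1.94, 1.45 and 1.19 FPKM in overexpression, against 0.38, 1.39 and 1.34 in vector. These values are near the filter of 1 FPKM, so the share of POLR3G is measured imprecisely. The highest share, in vector replicate 1, rests on the value of 0.38. POLR3G was 75.3%, 81.2% and 82.9% of the sum of its own and that joined row in overexpression, and 88.4%, 71.7% and 74.6% in vector, values that overlap (exact two-sided permutation test over 3 against 3 libraries, p = 0.80, where 0.10 is the smallest this design allows). The difference of 1.53 percentage points lay between -1.72 and 6.60 when 1 library was left out.

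Set beside each other, median relative log2 changes were 0.42 for the 5 polymerase II subunits and 0.21 for the 3 polymerase I subunits. They were -0.11 for the 9 polymerase III subunits and 0.22 for the 7 shared subunits. The median of all tested genes is 0 by construction. Each class median is the change of a single gene, in that order POLR2A, POLR1B, POLR3A and POLR2K. In these medians, unlike in the counts of calls, the order of polymerase II, I and III held under the other pseudocounts, the filters and the scalings. Leaving out the filter and median centring shift every class by the same constant, so they could not change that order. With trends on length, GC content and level removed, polymerases II and I lay close, at 0.18 and 0.13. With quantile normalization they were at 0.14 and 0.053. Without vector replicate 2, however, the medians were -0.014 for polymerase I and -0.0095 for polymerase III. Within a library, the median log2 level of the polymerase II subunits exceeded that of the polymerase III subunits by 1.97, 2.08 and 1.91 in overexpression and by 1.27, 1.54 and 1.23 in vector. The groups did not overlap in these differences, which a factor multiplying a whole library moves only through the added 0.5. In every library the polymerase II median was the level of POLR2G, so the gap follows that gene and not the class as a whole. POLR2G did not pass with trends on length, GC content and level removed (limma adjusted p = 0.124). The same difference between polymerases I and III was 0.91, 0.87 and 0.87 in overexpression and 1.09, 0.80 and 0.98 in vector, which overlap. In every library the polymerase I median was the level of POLR1A, so this difference follows POLR1A and not polymerase I as a whole. With so few genes a class, these medians describe the genes listed and carry no test.

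**Figure D3:**
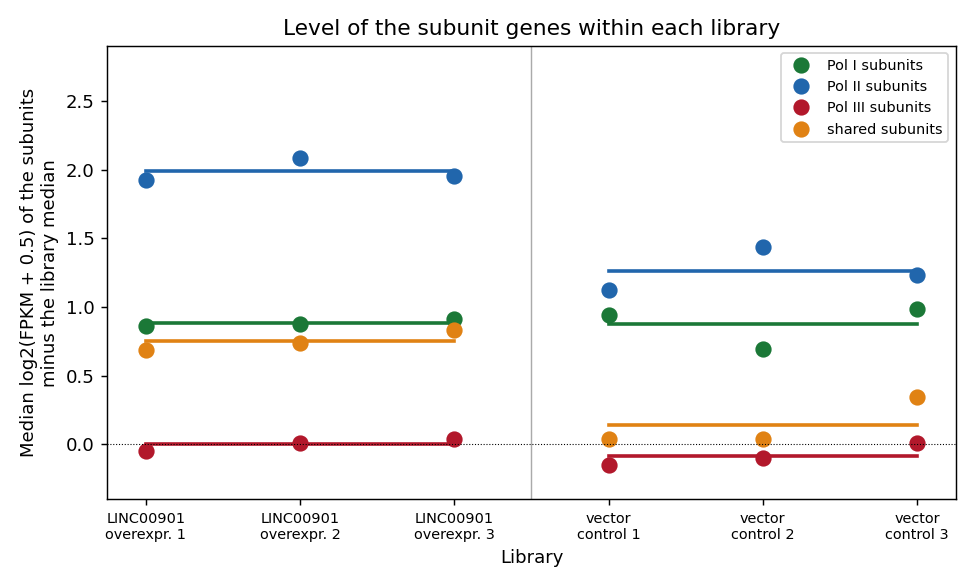
Median log2(FPKM + 0.5) of each subunit class minus the median of the tested genes, in each library (LINC00901 overexpression left, vector control right), with a line at the group mean. The polymerase II subunits lay at 1.92 to 2.09 in overexpression and 1.12 to 1.44 in vector, while the polymerase III subunits stayed near the library median in both, at -0.05 to 0.04 and -0.15 to 0.01. The polymerase II point is the value of POLR2G in every library, and the polymerase I point that of POLR1A.

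As a share of the summed FPKM of the 24 genes, polymerase II subunits made up 40.2%, 41.4% and 40.7% in overexpression and 37.5%, 39.2% and 37.0% in vector. Shared subunits made up 28.96%, 28.6% and 29.1% in overexpression and 24.7%, 26.6% and 24.3% in vector. Polymerase III subunits made up 16.4%, 16.3% and 16.1% in overexpression and 20.8%, 20.4% and 22.6% in vector. Their summed FPKM, not rescaled, was nevertheless higher in overexpression, at 40.94, 41.37 and 40.93 against 34.31, 34.10 and 38.48. A share falls when other genes in the sum rise more. Each of these 3 shares was separated between the groups. For the shared subunits the separation came from POLR2L, which averaged 24.3 FPKM in overexpression and 8.30 in vector. With POLR2L left out of both sums, the share of the shared subunits overlapped between the groups. Polymerase I subunits made up 14.4%, 13.7% and 14.2% in overexpression and 17.1%, 13.8% and 16.1% in vector.

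The genes differ in length, and short genes rose in this comparison as a whole. By the longest GENCODE 29 transcript, the median unscaled log2 change was 0.62 in the shortest quintile of genes (312 to 2172 bases) and 0.03 in the longest quintile. Of the 24 subunit genes 8 are in the shortest quintile, among them POLR2L (892 bases), POLR2I (993 bases), POLR2K (1021 bases) and POLR2G (1556 bases). POLR1D (4592 bases), POLR3D (5494 bases) and POLR2A (6751 bases) are longer and also rose in the unscaled fit. Over the 24 genes the rank correlation of change with length was -0.20, against -0.31 over the 8830 rows with a length, given as a description of genes measured in the same 6 libraries. With the length and GC trends removed, 8 subunit genes were higher and 3 lower (20.5% and 18.0% of tested rows), and with level as well 4 were higher and 3 lower (17.6% and 18.4%). With quantile normalization 7 were higher and 2 lower (19.2% and 20.9%). The genes called in the same direction in all 5 scalings were POLR1D, POLR2L, POLR3D and POLR3G, higher, and POLR1C, lower.

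**Figure D4:**
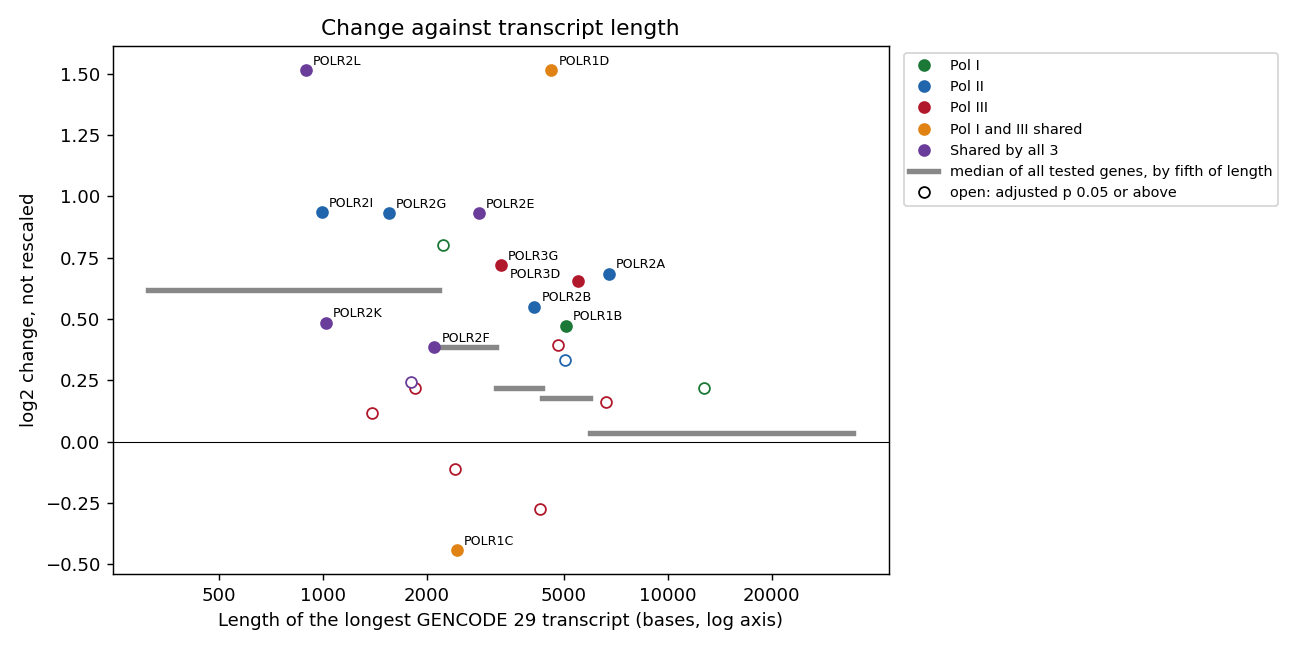
Unscaled log2 change of each subunit gene described here (overexpression over vector control) against the length of its longest transcript on a log axis, with grey bars at the median of all tested genes in each quintile of length. POLR1D, POLR3D, POLR3G and POLR2A lie well above the median of genes of like length, POLR2L lies above the bar of the shortest quintile, and POLR1C lies below its bar.

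Other parts of the machinery were followed through lists of single-name rows, whose counts are to be read against the shares of all tested rows, 37.4% higher and 11.9% lower unscaled, 24.0% and 19.2% after median centring, and 17.6% and 18.4% with trends on length, GC content and level removed. For polymerase I initiation 2 of 8 tested genes were higher (UBTF and CAVIN1) and 2 lower, also after median centring. With the 3 trends removed 1 was higher and 2 lower. The list also holds genes that act at other steps, CAVIN1 in transcript release and TTF1 in termination. UBTF, which binds the ribosomal gene promoter, rose to 9.06 ± 0.142 FPKM, against 5.24 ± 0.397 in vector (SD, n = 3; relative log2 change 0.47, limma adjusted p = 0.00113). TAF1C and TAF1D, subunits of the selectivity factor SL1, were lower, at 2.95 ± 0.0200 against 3.95 ± 0.358 and 11.2 ± 0.598 against 13.9 ± 0.446 FPKM (SD, n = 3; limma adjusted p = 0.0296 and 0.0217). The median relative log2 change of this list was -0.01.

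For polymerase III initiation and its repressor 9 of 15 genes were higher and 0 lower, after median centring 7 higher and 1 lower, and with the 3 trends removed 5 higher and 1 lower. GTF3C4, a subunit of TFIIIC, stood at 77.16, 80.48 and 79.64 FPKM in overexpression, against 32.18, 23.23 and 35.18 in vector (relative log2 change 1.13, limma adjusted p = 0.000563). MAF1, the repressor of polymerase III, stood at 11.98, 18.92 and 17.26 FPKM in overexpression, against 5.45, 6.72 and 6.30 in vector (relative log2 change 1.03, limma adjusted p = 0.00146). GTF3C6, another TFIIIC subunit, stood at 32.55, 26.79 and 26.03 FPKM in overexpression, against 12.34, 1.89 and 11.55 in vector (limma adjusted p = 0.0322), and its adjusted p was 0.0507 after median centring and 0.141 with the 3 trends removed. The median relative log2 change of the list was 0.35, against -0.11 for the polymerase III subunits themselves.

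Of 15 general factors of polymerase II 9 were higher and 1 lower, or 7 and 4 after median centring and 4 and 3 with the 3 trends removed. GTF2E2, a subunit of TFIIE, stood at 14.9 ± 1.77 against 6.47 ± 1.41 FPKM and GTF2H5, of TFIIH, at 3.41 ± 0.184 against 1.53 ± 0.572, while GTF2H1, also of TFIIH, was lower at 9.08 ± 1.10 against 13.0 ± 0.853 (SD, n = 3; limma adjusted p = 0.00200, 0.00726 and 0.0115). Of 21 elongation factors 13 were higher and 2 lower, or 9 and 3 after median centring and 3 and 3 with the 3 trends removed. NELFE, of the pausing factor NELF, stood at 19.8 ± 1.27 against 7.90 ± 1.93 FPKM, and CCNT2, a cyclin of the pause-release kinase, at 4.12 ± 0.450 against 8.09 ± 0.635 (SD, n = 3; limma adjusted p = 0.00145 and 0.00118). With the 3 trends removed the adjusted p of NELFE was 0.0513. TCEA1, the RNA cleavage factor TFIIS, varied among libraries, at 19.31, 37.76 and 36.36 FPKM in overexpression, against 22.55, 7.42 and 9.02 in vector (limma adjusted p = 0.0406, 0.0777 after median centring and 0.124 with the 3 trends removed).

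Of 11 polymerase assembly factors 6 were higher and 1 lower, or 5 and 2 after median centring and 3 and 3 with the 3 trends removed. PFDN2, a prefoldin of the R2TP-associated assembly complex, stood at 26.83, 32.96 and 29.75 FPKM in overexpression, against 10.43, 3.50 and 3.70 in vector, and RUVBL2, an ATPase of that complex, at 39.6 ± 0.385 against 19.3 ± 1.46 (SD, n = 3; limma adjusted p = 0.00230 and 0.000203). With the 3 trends removed RUVBL2 no longer passed (limma adjusted p = 0.256). RPAP2, a phosphatase of the POLR2A tail that also serves the import of polymerase II, was lower at 2.45 ± 0.301 against 4.59 ± 0.126 FPKM (SD, n = 3; limma adjusted p = 0.00186). Of 5 mitochondrial transcription genes 1 was higher and 2 lower, also after median centring and with the 3 trends removed. POLRMT, the single-subunit mitochondrial RNA polymerase, rose to 5.85 ± 0.439 FPKM, against 2.95 ± 0.0709 (SD, n = 3; limma adjusted p = 0.000785). TEFM, the mitochondrial elongation factor, and TFB1M, a methyltransferase of mitochondrial ribosomal RNA, were lower at 4.61 ± 0.744 against 7.42 ± 0.567 and 3.58 ± 0.350 against 5.58 ± 1.42 FPKM (SD, n = 3; limma adjusted p = 0.00770 and 0.0445). TFAM and TFB2M, the initiation factors, did not pass (limma adjusted p = 0.352 and 0.102).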

How the data were processed

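RNA sequencing of 6 MIA PaCa-2 libraries was deposited by the authors as 1 table of FPKM values per gene and library, per the file headers. The submitters' processing notes name cutadapt, FastQC, HISAT2 and hg19, and for their versions, the FPKM tool and the annotation the sources used here give nothing. The 990 rows that join gene names stayed in the fit but were not taken as members. Columns were matched to samples by the labels' descriptions. Values were transformed to log2(FPKM + 0.5), rows with a mean of at least 1 FPKM were kept (9694), and overexpression was compared with vector control in limma 3.58.1 (R 4.3.3) with an intensity trend, no replicate block and Benjamini-Hochberg adjustment over all tested rows, with a threshold of 0.05. The fit was tested on simulated data. Depth is unknown, so no count model or counting interval was used. Length and GC content came from the longest GENCODE 29 transcript by symbol (91.1% of tested rows and all 24 members), and since its build differs from hg19 no coordinates are taken from it. The trends were removed per library with natural splines of 4 degrees of freedom per term. Promoter windows are RefSeq's. All members are in the counts and class medians, but 1 polymerase III subunit and some sequence are not reported here. Other lists name up to 3 genes past the threshold by absolute change and all members of lists of 5 or fewer, and CAVIN1 and TTF1 are named besides. The members and lists were chosen with earlier results of these data known. Alternatives were other pseudocounts, filters, scalings, variance settings, the replicate block, joined rows left out and each library left out. Other steps used Python 3.11.15 with scipy 1.17.1, numpy 2.4.6 and pandas 2.3.3, and figures matplotlib 3.10.9.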

Additional observations from a re-analysis of the deposited data

How the results depend on the processing

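Of 422 values of single subunit genes under alternatives, 357 kept their direction and side of the threshold, 40 lost the call, 8 gained one and 17 changed sign. The count of all tested genes past the threshold was 4773, and 2818 with a mean of at least 5 FPKM and 3175 with the length, GC and level trends removed. The count of higher subunit genes was 12, and 7 with a mean of at least 5 FPKM (14 genes tested), 7 with quantile normalization and 4 with the length, GC and level trends removed. The count of lower ones was 1, and 2 with median centring or quantile normalization, 3 with either trend correction, 0 with no filter, with a mean of at least 5 FPKM or with the replicate block, and 0 to 1 without a single library. The median relative log2 change of polymerase I subunits was 0.37 with no filter, 0.085 with a mean of at least 5 FPKM, 0.053 with quantile normalization and -0.014 to 0.23 without a single library. That of polymerase II was 0.59 with no filter, 0.23 with a mean of at least 5 FPKM, 0.14 with quantile normalization and 0.18 with the length, GC and level trends removed. That of polymerase III was 0.061 with no filter, -0.27 with a mean of at least 5 FPKM, -0.27 with the length and GC trends removed, -0.18 with level as well and -0.17 to -0.0095 without a single library. That of the shared subunits was 0.22, and 0.39 with no filter, 0.090 with the length, GC and level trends removed, 0.12 without vector replicate 3 and 0.33 without vector replicate 2. No filter lowers the median of all genes to which these are relative, and the higher minimum raises it and tests fewer genes in all. For polymerase I the same 3 genes were tested at the higher minimum. For the other settings the cause was not tested. The log2 changes whose sign differed from that of the unscaled change in the main fit were POLR1A (-0.098, quantile), POLR2F (-0.14, length and GC), POLR2H (-0.068 quantile, -0.38 length and GC, -0.50 with level), POLR3A (-0.049 median centring, -0.063 quantile, -0.0041 length and GC, -0.014 with level), POLR3C (-0.25 length and GC, -0.17 with level), POLR3F (-0.28 to 0.096 without a single library, positive without vector replicate 1) and POLR3K (-0.090 median centring, -0.11 quantile, -0.40 length and GC, -0.32 with level, and -0.0045 to 0.22 without a single library, negative without overexpression replicate 2). Same-numbered libraries did not deviate together (correlations of -0.037, -0.0057 and -0.0050 over tested genes). These correlations cannot show whether same-numbered libraries were prepared together, so the fit with the replicate block is given as well. With the replicate block 4227 genes passed in all and 11 subunit genes were higher and 0 lower, POLR2F and POLR1C losing their calls. With an unknown depth, the precision of low genes such as POLR2F cannot be stated.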
